A study of Mus musculus with 26 samples.

Results

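The transcripts of 9 neuropeptide and peptide hormone precursors, Npy, Cartpt, Tac1, Tac2, Penk, Adm, Nppc, Gal and Vip, were examined among the 23337 genes counted in the epididymis and testis of ArKI and wild-type mice. The genes were chosen by symbol, and the set was selected on its values in the caput epididymidis, where Npy and Cartpt were higher and Tac2 was lower in the mutant. The caput values of the 9 genes are therefore given as a description without a test, and tests on them were made in the other tissues. All 9 symbols were found in the count tables.

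ArKI is the label of a knockin line in which conserved SUMO acceptor lysines of a transcription factor are arginines, a point change in every cell that gene counts cannot check. ArKI males and wild-type (WT) males, both of the strain C57Bl/6N; 129 hybrid and 3 months old, were compared to ask how loss of this modification alters gene expression in the male tract. RNA came from the whole initial segment (IS, 5 WT and 5 ArKI samples), the whole caput (5 and 5) and the whole testis (3 and 3), and the samples of a group came from separate mice. As far as the methods tell, the IS and the caput were taken from the same animals, and the labels do not say which samples share one, so the IS tests do not rest on other mice than those on which the genes were chosen. The IS and caput libraries belonged to sequencing batch 2 and the testis libraries to batch 1, so a difference in level between testis and epididymis cannot be told apart from a difference between batches, whereas WT and ArKI were always compared within a tissue and batch. Such bulk tissue holds epithelium, muscle, vessels, nerves and sperm, and in it fewer cells of a type and less RNA per cell cannot be told apart.

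Neuropeptides and peptide hormones are made as long precursors that enter the secretory pathway, where proprotein convertases cut them at basic residues and further enzymes trim and amidate the ends. The finished peptides are released from granules, act on G protein-coupled or guanylyl cyclase receptors of nearby or distant cells, and are degraded by peptidases on cell surfaces. The male tract receives autonomic nerves that use neuropeptide Y, VIP and tachykinins as transmitters, and its epithelium and germ cells also transcribe some precursor genes.

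The sequences upstream of 4 of the genes are shown because the results described below turn on these genes. They are the 250 bases before the RefSeq transcription start in GRCm38.p6, written 5′ to 3′ on the strand of the gene. Npy was read from chr6:49822460-49822709 (plus strand), Cartpt from chr13:99900684-99900933 (minus strand), Tac2 from chr10:127724228-127724477 (plus strand) and Vip from chr10:5638968-5639217 (plus strand). Capitals mark matches to the motifs described after the sequences.
Npy: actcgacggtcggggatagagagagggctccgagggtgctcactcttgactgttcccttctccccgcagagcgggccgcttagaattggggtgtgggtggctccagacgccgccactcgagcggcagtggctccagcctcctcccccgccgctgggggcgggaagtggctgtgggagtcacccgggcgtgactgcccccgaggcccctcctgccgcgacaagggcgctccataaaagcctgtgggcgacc
Cartpt: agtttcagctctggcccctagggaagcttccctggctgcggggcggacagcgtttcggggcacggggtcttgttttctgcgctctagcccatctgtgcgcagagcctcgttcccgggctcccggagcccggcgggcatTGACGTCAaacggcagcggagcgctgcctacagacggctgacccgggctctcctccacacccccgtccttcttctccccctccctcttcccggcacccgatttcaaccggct
Tac2: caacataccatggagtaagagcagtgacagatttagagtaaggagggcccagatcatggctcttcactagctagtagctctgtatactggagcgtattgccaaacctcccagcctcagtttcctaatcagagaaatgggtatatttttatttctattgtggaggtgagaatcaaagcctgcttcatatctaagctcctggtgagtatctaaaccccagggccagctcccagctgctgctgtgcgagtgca
Vip: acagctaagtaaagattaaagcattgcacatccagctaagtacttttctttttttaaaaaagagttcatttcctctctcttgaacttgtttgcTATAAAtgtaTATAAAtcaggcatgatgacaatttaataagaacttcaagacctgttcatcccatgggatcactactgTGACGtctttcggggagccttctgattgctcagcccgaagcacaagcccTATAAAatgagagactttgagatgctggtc

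Matches to the cAMP response element, its core and the TATA box were sought on both strands in the 8 members that had an entry in the promoter table (Penk had none) and in 27025 promoters of the same length. The cAMP response element TGACGTCA was in the window of Cartpt, 112 bases before its start, and in 1.62% of all promoters. Its core TGACG or CGTCA, which overlaps the full element, was in Cartpt, Tac1 and Vip and in 17.9% of all promoters. The letters TATAAA or TTTATA were in Nppc, 29 bases before the start, and in Vip at 157, 147 and 30 bases before it, against 13% of all promoters. The gene positions given below are from GENCODE annotation, in which Cartpt and Tac1 begin upstream of the RefSeq start. The window of Cartpt thus lies inside its GENCODE span, and that of Tac1 lies partly inside. These are matches of letters in a short window, and no binding was measured here.

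In the IS, Vip rose in ArKI mice, Penk rose and Adm fell by almost exactly 2-fold, and Tac2 and Tac1 were lower at very low counts. Cartpt, Nppc and Gal were at or near 0. A gene was called at an adjusted p below 0.01 and a fold change above 2, the limits used in the study's methods. Of the 9 members, 3 had enough counts to pass the low-count filter (Penk, Adm and Vip), 3 had at most 3 counts in every IS sample, and 1, Vip, was called up and none down, where 2.72% of the 13434 genes tested in the IS were called up and 1.32% down. At an adjusted p below 0.01 without a fold limit, Penk and Vip rose and Adm fell, where 9.35% of genes tested rose and 9.48% fell. The libraries hold 5829074 to 9770625 counts in the IS, so that 3 counts correspond to 0.307 to 0.515 CPM (the count scaled to library size).

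Vip encodes vasoactive intestinal peptide, a relaxant and secretory transmitter of autonomic nerves (chr10:5639218-5647617, plus strand). Its level was 61.6, 87.8, 62.0, 61.6 and 40.7 CPM in the 5 WT IS samples and 140, 157, 99.5, 189 and 143 CPM in the 5 ArKI IS samples. Every ArKI sample was above every WT sample. WT averaged 62.7 ± 16.7 CPM and ArKI 145 ± 32.3 CPM (SD, n = 5 each), a log2 fold change of 1.21 (SE 0.23) with a p of 0.0041 from edgeR's quasi-likelihood test after Benjamini-Hochberg adjustment over all genes tested (adjusted p hereafter). The adjusted p rose just above 0.01 when WT IS 1, WT IS 3, WT IS 4, ArKI IS 2 or ArKI IS 5 was left out, with a highest value of 0.0125 among these. Counting all members, the number of members called was 0 without WT IS 4 and 3 without ArKI IS 3.

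Penk encodes proenkephalin, the precursor of the opioid enkephalins (chr4:4133531-4138819, minus strand). The WT IS samples held 63.1, 57.7, 62.5, 52.1 and 50.2 CPM, and the ArKI IS samples 169, 122, 91.3, 93.3 and 94.1 CPM. The groups did not overlap, and ArKI IS 1 stood highest. The log2 fold change was 0.9989 (SE 0.19), just under the 2-fold limit, with an adjusted p of 0.0046 in edgeR's quasi-likelihood test. That adjusted p was above 0.01, up to 0.0143, without any one of the 5 WT IS samples or without ArKI IS 2. Together with Vip, 2 of the 9 members had every ArKI sample above every WT sample among those that passed the filter, a pattern of 9.53% of the genes tested in the IS.

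Adm encodes adrenomedullin, a vasodilator peptide made by many cell types including endothelium (chr7:110627661-110629820, plus strand). It held 3.52, 4.80, 4.37, 6.40 and 3.65 CPM in WT IS and 2.65, 2.40, 2.46, 1.37 and 2.24 CPM in ArKI IS. All ArKI samples were below all WT samples, as for 10.5% of genes tested. The log2 fold change was -0.9996 (SE 0.22), with an adjusted p of 0.0021 in edgeR's quasi-likelihood test, again just short of the 2-fold limit. The 6 endothelial markers summed to 141 to 176 CPM in WT IS and 95.5 to 117 CPM in ArKI IS, without overlap, none of them was at 0 in every sample, and their part in the result was not tested.

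The tachykinin precursors were low in the IS. Tac1, which encodes substance P and neurokinin A (chr6:7554879-7565834, plus strand), had 10, 15, 13, 23 and 15 counts in WT IS and 6, 7, 3, 5 and 9 counts in ArKI IS. Tac2, which encodes neurokinin B (chr10:127724478-127731768, plus strand), had 56, 12, 9, 5 and 29 counts in WT IS and 0, 0, 0, 3 and 2 counts in ArKI IS. For both genes every ArKI sample was below every WT sample. That pattern held for 10.5% of the genes tested in the IS, a set that leaves out both genes because they were under the low-count filter.

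On log2(CPM + 0.5), a scale that understates changes of low genes, Tac1 differed by -0.81 and Tac2 by -2.0, each with p = 0.0079 in an exact two-sided permutation test (n = 5 and 5), the smallest p that 252 assignments can give. The size of the Tac2 difference depended on the pseudocount and was -3.44 with 0.1 and -1.44 with 1. Because no ArKI IS library had more than 3 Tac2 counts, Tac2 was at least 6.14-fold lower against a floor of 3 counts per library, and at least 3.67-fold lower without WT IS 1, the highest WT sample. Fitted by edgeR without the low-count filter, Tac1 had an adjusted p of 0.016 and Tac2 of 0.020, above the limit of 0.01. WT IS 1 had the most Tac2 counts and also the most of the caput marker Lcn5 in the WT IS (114 CPM), whereas WT IS 4, with the next most Lcn5 (92.6 CPM), had the fewest Tac2 counts of the WT IS samples. ArKI IS samples had 40.4 to 89.9 CPM of Lcn5, and the 8 sperm and late spermatid markers summed to 9.96 to 70.3 CPM in WT IS and 2.02 to 5.98 CPM in ArKI IS. The part of carried-over caput tissue and of sperm in the Tac2 difference was not tested.

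Npy, which encodes the sympathetic cotransmitter neuropeptide Y (chr6:49822710-49829507, plus strand), was low in the IS. It had 8, 4, 3, 5 and 7 counts in WT and 5, 23, 8, 7 and 21 counts in ArKI. The groups overlapped, and ArKI IS 2 and ArKI IS 5, the highest for Npy, were also the highest ArKI IS samples for Lcn5, at 89.9 and 70.5 CPM. The difference on log2(CPM + 0.5) was 0.86 with p = 0.032 in an exact two-sided permutation test (n = 5 and 5). The exact permutation p was between 0.056 and 0.079 without WT IS 2, WT IS 3, ArKI IS 2 or ArKI IS 5. Npy was chosen on its caput values, where the ArKI samples held 642 to 760 CPM. The permutation test therefore cannot tell a change within the IS apart from carried-over caput tissue, whose part was not tested. The p-values of the 7 single-gene permutation tests in the IS and testis were not adjusted for each other.

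**Figure D1:**
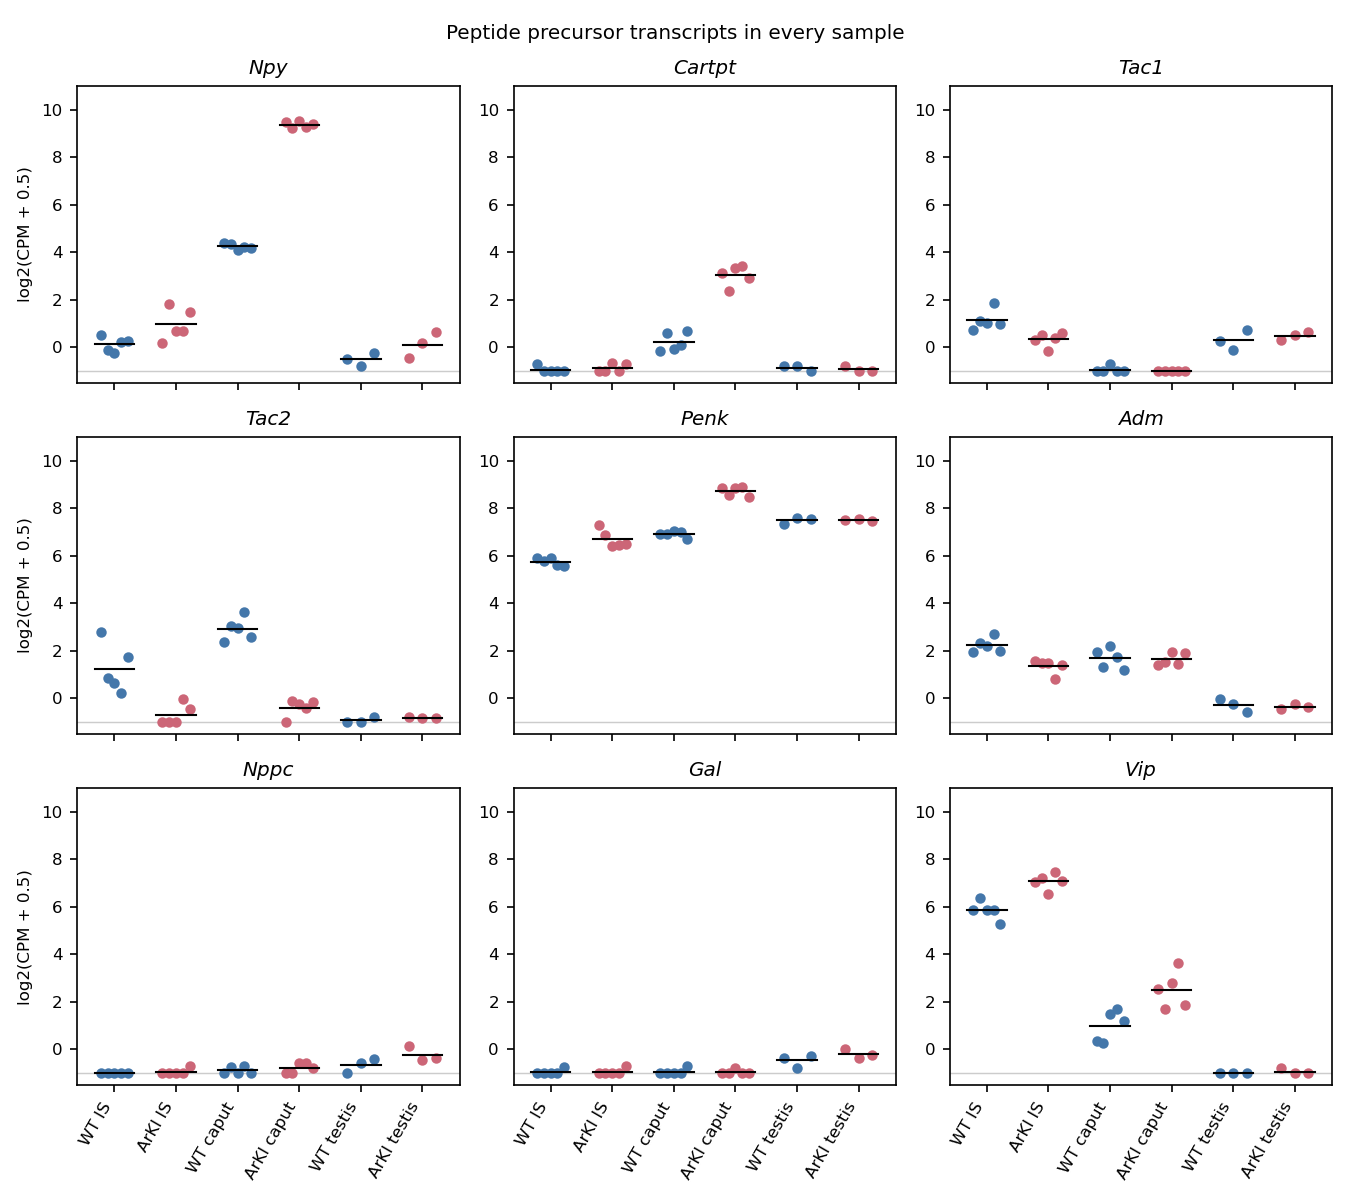
Level of each precursor transcript in each of the 26 samples, as log2(CPM + 0.5) with CPM scaled over all samples; points are samples (WT blue, ArKI red), black bars are group means and the grey line is a count of 0. Npy and Penk in ArKI caput are the highest levels, Vip is highest in the IS groups, and Cartpt, Nppc and Gal lie on or near the line of 0 in the IS.

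In the caput, 6 members passed the low-count filter and 3 (Tac1, Nppc and Gal) had at most 3 counts in every sample. Npy, Cartpt, Penk and Vip had every ArKI sample above every WT sample and Tac2 had every ArKI sample below. The corresponding shares of the 13726 genes tested in the caput were 9.94% above and 10.4% below, and 2.43% of genes were called up and 2.55% down. The set was chosen on this contrast, so nothing is read from the member counts. The caput libraries hold 4125768 to 11913469 counts, and ArKI caput 2 was the shallowest.

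Npy held 21.6, 20.8, 17.4, 19.4 and 18.4 CPM in WT caput and 745, 647, 760, 642 and 694 CPM in ArKI caput. The spread within each group was small beside the gap between them. The means of 19.5 ± 1.72 (SD, n = 5) and 698 ± 54.3 CPM (SD, n = 5) corresponded to a fitted fold of 35.7, or 5.16 on the log2 scale (SE 0.078). Npy took 0.00171% to 0.00216% of all gene counts in WT caput and 0.0637% to 0.0756% in ArKI caput. By level per length (RPKM, the CPM divided by the exon length in kilobases) it ranked 1804 of 22869 genes in WT caput and 35 in ArKI caput.

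Cartpt encodes the precursor of the CART peptides (chr13:99898489-99901091, minus strand). WT caput samples had 4, 10, 4, 5 and 10 counts and ArKI caput samples 71, 22, 113, 122 and 89 counts. The lowest ArKI value came from the shallowest library, and at 5.07 CPM it was still above the WT maximum of 1.17 CPM. The fitted fold was 11.2, on means of 0.747 ± 0.354 and 8.27 ± 2.17 CPM (SD, n = 5 each). No IS library held more than 1 count of Cartpt.

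Tac2 held 5.02, 8.24, 7.71, 12.4 and 5.71 CPM in WT caput. In ArKI caput it held 0, 2, 4, 3 and 5 counts, or at most 0.461 CPM. The fitted log2 difference was -4.67 (SE 0.38), a 25.5-fold lower level. The 8 sperm and late spermatid markers were all called down in ArKI caput as well, with a summed level of 222 to 352 CPM in WT and 36.2 to 97.0 CPM in ArKI. The part of these cells in the Tac2 difference was not tested.

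Penk held 130, 126, 140, 136 and 109 CPM in WT caput and 489, 405, 479, 489 and 365 CPM in ArKI caput. Its fitted fold was 3.48 (log2 1.80, SE 0.092), and it was the highest of the 9 members per length in WT caput, at 83.8 RPKM. In ArKI caput it came after Npy, with 293 against 1176 RPKM. Per Penk count there were 0.124 to 0.170 Npy counts in WT caput and 1.31 to 1.90 in ArKI caput, a ratio within each library that does not depend on its scaling.

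Vip was low in the caput, with 0.819, 0.759, 2.45, 2.92 and 1.87 CPM in WT and 5.66, 3.00, 6.62, 12.3 and 3.29 CPM in ArKI. The groups did not overlap, but the lowest ArKI sample was close to the highest WT sample, and the fitted fold was 3.69 (log2 1.89, SE 0.49). Lcn8, an IS marker, was at 9266 CPM or more in all IS samples. It had 42.7, 125, 1077, 1147 and 199 CPM in the WT caput samples. In the ArKI caput samples it had 28.3, 69.0, 375, 166 and 52.1 CPM. Within each genotype the 2 samples with the most Lcn8 were also those with the most Vip, and the part of carried-over IS tissue in the caput values was not tested.

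Adm overlapped between the caput groups, with 1.87 to 4.32 CPM in WT and 2.29 to 3.44 CPM in ArKI. The fitted log2 difference was -0.07 (SE 0.24). Tac1 had at most 1 count in any caput library.

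**Figure D2:**
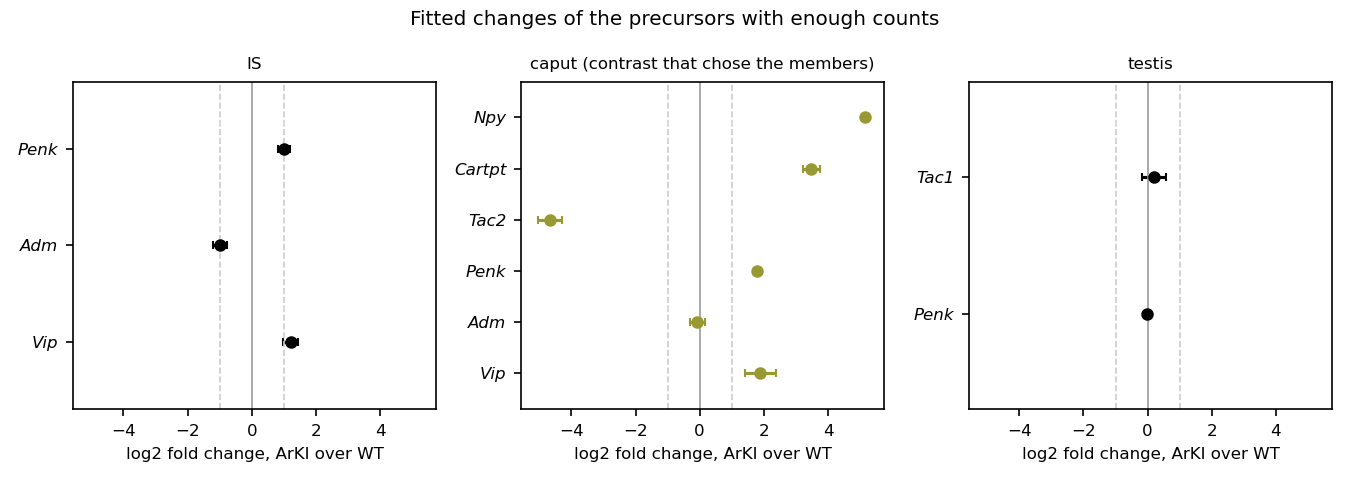
Fitted log2 fold change of ArKI over WT (points) with its standard error (bars) for the members that passed the low-count filter in each tissue; dashed lines mark 2-fold. Npy at 5.16 and Tac2 at -4.67 in the caput, the contrast that chose the members, lie farthest from 0, Penk and Adm in the IS lie on the dashed lines, and Penk in the testis lies on 0.

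In the testis no member was called, at the limits of an adjusted p below 0.2 and a fold above 2 used in the study's methods, where 0.751% of the 15838 genes tested were called up and 0.0821% down. The libraries hold 14077013 to 21376604 counts. Penk and Tac1 passed the low-count filter, and Cartpt, Tac2 and Vip had at most 1 count in every sample. Penk held 139, 161 and 157 CPM in WT and 154, 151 and 147 CPM in ArKI, with a log2 fold change of -0.01 (SE 0.066) and an adjusted p of 0.96 in edgeR's quasi-likelihood test. At 124 RPKM in WT and 125 RPKM in ArKI, Penk was the highest of the 9 members in the testis, where the gene is known to be transcribed by spermatogenic cells.

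Tac1 had 10, 5 and 14 counts in WT testis and 10, 16 and 15 in ArKI testis, with a log2 fold change of 0.21 (SE 0.38) and an adjusted p of 0.87 in edgeR's quasi-likelihood test. Npy had 3, 1 and 4 counts in WT and 3, 11 and 15 in ArKI, and Nppc, the precursor of C-type natriuretic peptide (chr1:86666291-86670571, minus strand), had 0, 2 and 3 in WT and 8, 4 and 4 in ArKI. Gal, the galanin precursor (chr19:3409915-3414544, minus strand), had 4, 1 and 4 counts in WT and 7, 5 and 5 in ArKI, and Adm had 7, 4 and 2 in WT and 3, 6 and 4 in ArKI.

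On the CPM scale the ranges of all 6 of these genes overlapped, so no member had all ArKI testis samples above or below all WT samples, where this held for 9.35% and 8.49% of the genes tested. Exact two-sided permutation tests gave p = 0.2 for Npy, 0.2 for Nppc, 0.4 for Gal and 0.6 for Adm (n = 3 and 3), in a design that cannot go below 0.1. Vip was at 0 in all WT testis libraries, and 0 counts allow up to 3 counts, or 0.140 to 0.213 CPM over the 6 testis libraries, by counting error only.

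The order of the levels differed between the tissues. In WT mice Npy per length was 32.7 RPKM in the caput, 1.08 RPKM in the IS and 0.373 RPKM in the testis, and in ArKI mice 1176, 2.91 and 1.12 RPKM. ArKI caput and WT caput were above all other groups without overlap, whereas the IS and testis ranges of ArKI overlapped. The caput level was 30.2-fold the IS level in WT and 404-fold in ArKI.

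Vip had the opposite segment order, 38.8 RPKM in WT IS and 1.09 RPKM in WT caput, and 89.6 and 3.87 RPKM in the ArKI groups. All 4 epididymal groups were separate from each other. Penk followed the order ArKI caput (293 RPKM), ArKI testis (125), WT testis (124), WT caput (83.8), ArKI IS (74.1) and WT IS (37.3), with overlap between the testis groups and between WT caput and ArKI IS.

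Tac2 was highest in WT caput at 8.42 RPKM, overlapping WT IS at 2.80 RPKM (a mean of 2.46 CPM scaled over all samples, and 1.47 CPM without WT IS 1), and was at 0.32 RPKM or lower in the other groups. Tac1 was highest in WT IS at 1.44 RPKM, and Adm lay between 1.51 and 3.09 RPKM in the epididymal groups, with overlap between neighbours. Within the IS, Vip and Penk were the 2 highest members in both genotypes, with overlapping ranges.

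The receptors of these peptides were mostly low, and the receptors called were those of VIP, neuropeptide Y and adrenomedullin. Of 24 receptor and receptor-partner genes, 15 passed the filter in the IS, of which 2 were called up and 1 down. In the caput 14 passed, of which 1 was called up and 1 down, and in the testis none of the 12 that passed was called. The median log2 fold change of those that passed was -0.26 in the IS, -0.02 in the caput and 0.14 in the testis, beside medians over all genes tested of -4.4e-05, 0.0017 and -0.0023.

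Vipr2, a receptor for VIP, rose in both epididymal tissues. In the IS it went from 0.125 to 0.457 CPM in WT to 1.54 to 3.10 CPM in ArKI (log2 fold change 2.91, SE 0.35, edgeR quasi-likelihood adjusted p 3.3e-06). In the caput it went from 0.434 to 2.66 CPM to 2.88 to 4.15 CPM (log2 fold change 1.26, SE 0.31, edgeR quasi-likelihood adjusted p 0.0054). The groups did not overlap in either tissue, and the level stayed near 1 RPKM or below. The caput call was lost without WT caput 4, WT caput 5, ArKI caput 1, ArKI caput 3 or ArKI caput 4, with an edgeR adjusted p of up to 0.018.

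Vipr1, the other VIP receptor, had 13.3 ± 1.35 CPM in WT IS and 9.68 ± 0.531 CPM in ArKI IS (SD, n = 5), a log2 difference of -0.47 with an edgeR quasi-likelihood adjusted p of 0.0026, which was not 2-fold. Among the neuropeptide Y receptors, Npy6r rose in the IS from 0.374 to 1.03 CPM in WT to 2.40 to 7.94 CPM in ArKI (log2 fold change 2.55, SE 0.34, edgeR quasi-likelihood adjusted p 1.4e-05). Npy2r fell in the caput, from 2.85 ± 1.35 to 0.733 ± 0.432 CPM (SD, n = 5; log2 -2.13, SE 0.43, edgeR quasi-likelihood adjusted p 0.0015), although the sample ranges overlapped. Npy1r, at 0.608 RPKM in WT IS and 0.612 RPKM in WT caput, was called in no tissue, Npy4r had at most 1 count in every epididymal library and Npy5r had none.

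Adrenomedullin acts on Calcrl paired with Ramp2 or Ramp3. Ramp3 fell in the IS from 16.8 ± 2.39 to 6.19 ± 2.06 CPM (SD, n = 5; log2 -1.45, SE 0.17, edgeR quasi-likelihood adjusted p 5.7e-06). In the caput Ramp3 was the highest gene of the receptor list, with 132 RPKM in WT and 117 RPKM in ArKI, and its log2 difference was -0.18 (SE 0.27, edgeR quasi-likelihood adjusted p 0.69). Calcrl had a log2 difference of -0.49 in the IS (edgeR quasi-likelihood adjusted p 0.0048), under the fold limit, and Ramp2 had 5.47 and 5.23 RPKM there.

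The tachykinin receptors were low wherever their ligand genes were seen. Tacr1, the substance P receptor, had 0.525 RPKM in WT IS and 0.390 RPKM in ArKI IS, and Tacr3, the neurokinin B receptor, had at most 3 counts in an IS library and 6 in a caput library. The opioid receptors Oprd1, Oprm1 and Oprk1 had at most 5 counts in any epididymal library, whereas Ogfr, which binds Met-enkephalin, had 17.2 to 20.5 RPKM in the 4 epididymal groups. Of the galanin receptors, Galr1 had 0 to 3 counts in WT IS and 3 to 14 in ArKI IS and did not pass the filter. Npr2, the receptor of C-type natriuretic peptide, had 1.77 to 3.01 RPKM in the epididymal groups, where its ligand gene had at most 2 counts.

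**Figure D3:**
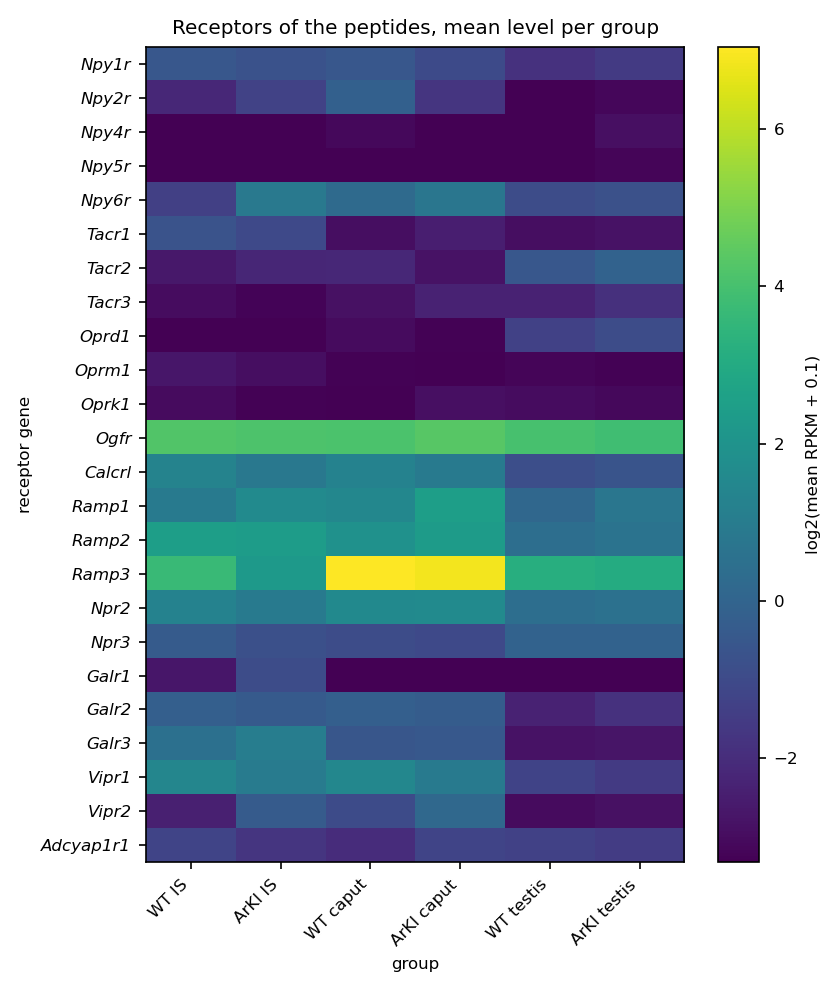
Mean RPKM of 24 receptor and receptor-partner genes in the 6 groups, as log2(mean RPKM + 0.1) in colour. Ramp3 in the caput (132 and 117 RPKM) is the highest, Ogfr is high in every group, and the opioid receptors Oprm1 and Oprk1 are near the bottom of the scale in all groups.

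Among 19 precursor processing and secretory granule genes, 12 passed the filter in the IS and 1 was called, down. Pcsk5, a proprotein convertase, fell from 413 ± 8.47 to 185 ± 14.1 CPM (SD, n = 5; log2 -1.16, SE 0.050, edgeR quasi-likelihood adjusted p 1.5e-12). In the caput 13 passed and 2 convertases were called up. Pcsk2, the neuroendocrine convertase that cuts proenkephalin and pro-CART among others, rose from at most 0.467 CPM in WT to 1.5 to 2.54 CPM in ArKI (log2 3.16, SE 0.49, edgeR quasi-likelihood adjusted p 1.1e-04), and Pcsk6 rose from 1.97 ± 0.704 to 4.89 ± 0.955 CPM (SD, n = 5; log2 1.28, SE 0.24, edgeR quasi-likelihood adjusted p 5.4e-04). In the testis none of 17 was called.

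Of 16 peptide-cleaving enzymes, 13 passed in the IS and 14 in the caput, and 1 was called up in each. Dpp4, the dipeptidyl peptidase that shortens neuropeptide Y, rose in the IS from 30.0 to 59.3 CPM in WT to 147 to 211 CPM in ArKI (log2 2.10, SE 0.19, edgeR quasi-likelihood adjusted p 5.5e-05). Anpep, an aminopeptidase that degrades enkephalins, rose in the caput from 7.30 to 16.6 CPM to 28.9 to 43.4 CPM (log2 1.85, SE 0.20, edgeR quasi-likelihood adjusted p 7.2e-05). None of the 13 that passed in the testis was called.

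Of 70 other peptide precursors, 28 were at 0 in every IS sample and 22 in every caput sample. Of the 8 that passed in the IS 2 were called up, of the 14 in the caput 3 were called up, of the 23 in the testis 2 were called up, and none was called down. Sct, the precursor of secretin, was called up in all 3 tissues, with log2 fold changes of 1.40 (SE 0.27) in the IS, 1.44 (SE 0.15) in the caput and 1.22 (SE 0.29) in the testis and edgeR quasi-likelihood adjusted p-values of 5.7e-04, 1.4e-06 and 0.023. The level of Sct was low in each, at most 9.62 CPM in any library, and the testis call was lost without WT testis 3 (log2 0.90).

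Agt, the precursor of angiotensin, rose in the IS from 9.02 ± 2.53 to 29.9 ± 12.6 CPM and in the caput from 47.5 ± 25.5 to 300 ± 28.0 CPM (SD, n = 5), with log2 fold changes of 1.71 (SE 0.32) and 2.65 (SE 0.35) and edgeR quasi-likelihood adjusted p-values of 0.0039 and 6.9e-04. The IS call was lost, with an edgeR adjusted p of up to 0.012, without WT IS 1, WT IS 2, WT IS 3 or WT IS 4. Iapp, the islet amyloid precursor, was at the fold limit in the caput (log2 1.01, SE 0.20, edgeR quasi-likelihood adjusted p 0.0011) and fell under it without WT caput 5, ArKI caput 3 or ArKI caput 4, to log2 0.85 at the lowest. Nmb, the neuromedin B precursor, rose in the testis from 5.28 to 6.18 CPM in WT to 16.9 to 19.2 CPM in ArKI (log2 1.63, SE 0.11, edgeR quasi-likelihood adjusted p 4.1e-09). The 5 Leydig cell markers summed to 534 to 736 CPM in WT testis and 891 to 962 CPM in ArKI testis. Of these, Cyp17a1 and Cyp11a1 were higher in every ArKI testis sample (log2 0.59 and 0.92). Insl3, Star and Hsd3b6 overlapped between the genotypes (log2 0.02, 0.33 and -0.28). The part of Leydig cells in the testis results was not tested.

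**Figure D4:**
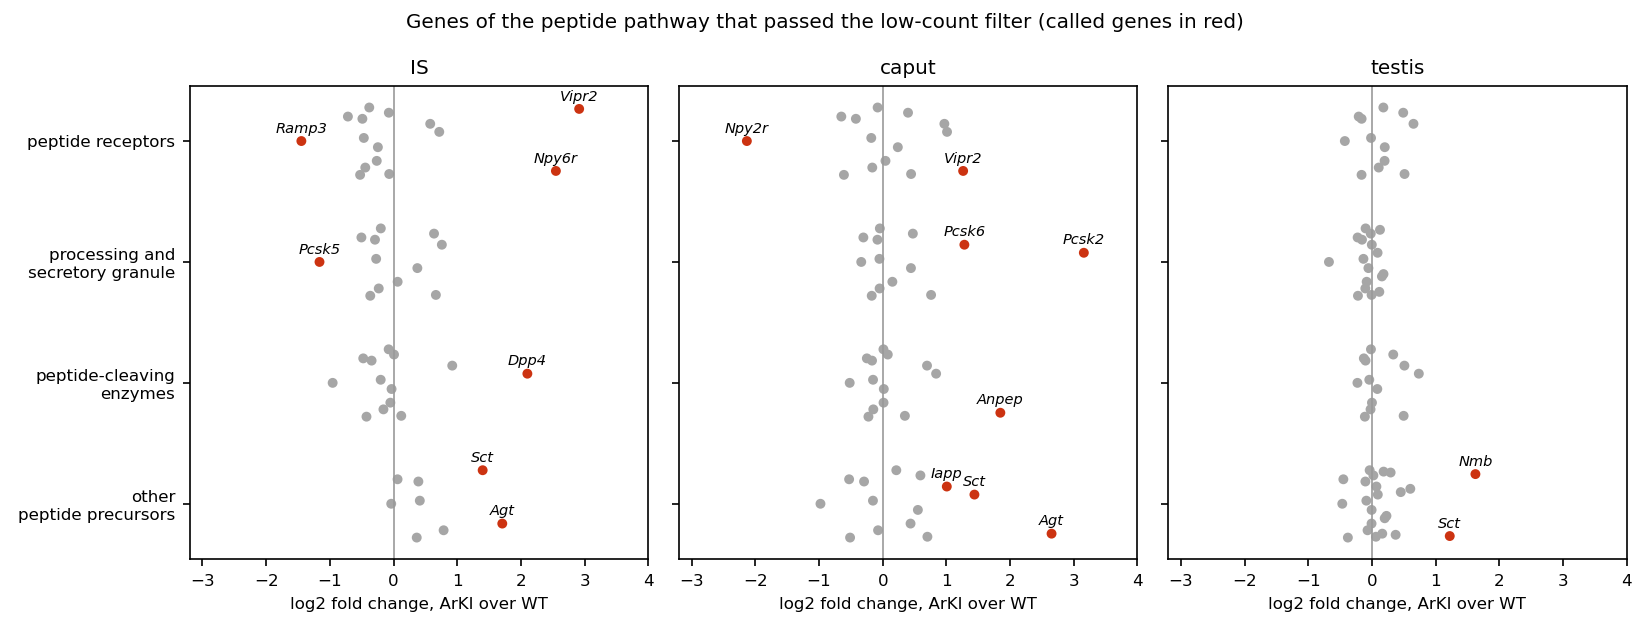
Log2 fold change of ArKI over WT for the genes of 4 peptide pathway lists that passed the low-count filter, in the IS, caput and testis; each point is a gene, vertical offsets only separate the points, and called genes are red and named. Pcsk2 in the caput (3.16) and Vipr2 in the IS (2.91) rose farthest, Npy2r in the caput (-2.13) fell farthest, and Sct is red in all 3 tissues.

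The markers of other cell types also moved between the groups. In the IS the summed level was lower in every ArKI sample than in every WT sample for the 10 neuron markers (26.4 to 36.2 CPM in WT and 17.1 to 20.2 CPM in ArKI), the 6 smooth muscle markers (3508 to 3750 and 2902 to 3468 CPM) and the 3 basal cell markers (262 to 310 and 204 to 233 CPM). Most of the neuron sum was Uchl1, a gene also used outside neurons, whereas Tubb3 and Chat were at 0 in every IS sample and Th and Dbh had at most 1 count. Most of the smooth muscle sum was Actg2, whose ranges overlapped in the IS (log2 -0.095). Acta2, Myh11, Cnn1, Tagln and Des were lower in every ArKI IS sample (log2 -0.93, -1.03, -1.10, -0.98 and -0.79). Of these, Myh11 and Cnn1 were called down. In the caput the neuron sum was 7.55 to 8.91 CPM in WT and 9.23 to 15.8 CPM in ArKI, the endothelial sum 59.5 to 66.6 and 69.3 to 96.7 CPM, and Chat was at 0. The noradrenergic markers Th and Dbh had at most 2 and 19 counts in a WT caput library. In an ArKI caput library they had at most 1 and 10 counts. The part of these cell types in the other results was not tested. Sertoli cell markers, mainly Sox9, which is not particular to Sertoli cells, summed to 123 to 144 and 145 to 190 CPM in the IS and to 53.4 to 61.5 and 87.2 to 105 CPM in the caput, and the immune cell sum in the testis was 17.2 to 20.4 CPM in WT and 22.3 to 24.9 CPM in ArKI. Schwann and immune cell sums overlapped between the genotypes in both epididymal tissues, and the 8 epididymal epithelium markers summed to 59340 CPM or more in every epididymal sample and to 290 CPM or less in the testis. Single epithelial markers did differ in the IS: Crisp1 was called down (2096 ± 422 to 351 ± 90.4 CPM, SD, n = 5, log2 -2.58, edgeR quasi-likelihood adjusted p 5.8e-05), Lcn8, Cst8 and Rnase10 were lower in every ArKI IS sample than in every WT IS sample (log2 -0.47, -0.57 and -0.32), and Adam7 was higher in every one (log2 0.48). Ros1 was higher in every ArKI caput sample (log2 0.36). Gpx5, Lcn5 and Rnase10 were lower in every ArKI testis sample (log2 -0.54, -0.43 and -0.29). The part of these shifts in the values of the precursors was not tested.

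The genes whose pattern was most like each member were sought among 14329 genes by Pearson correlation of log2(CPM + 0.5) over the 20 epididymal samples, for the 7 members with enough counts. The points share 2 tissues, 2 genotypes and, as far as the methods tell, mice, so that these values describe group patterns and carry no p. Npy was most like Gyltl1b (r = 0.98), Pitpnc1 (0.98) and Fkbp10 (0.98), and Cartpt was most like Npy itself (0.97), then Gyltl1b (0.95) and Sult2a6 (0.95). Sult2a6 was seen almost entirely in one group, with at most 0.234 CPM in the other groups and 1.38 to 4.27 CPM in ArKI caput.

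Vip was most like Slc47a2 (r = 0.99), Lphn3 (0.98) and Slamf6 (0.98), all higher in the IS than in the caput and higher in ArKI IS than in WT IS. Slc47a2, a transporter gene, had 18.9 to 21.8 CPM in WT IS and 34.2 to 50.6 CPM in ArKI IS. Penk was most like Calml3 (0.96), Ctsb (0.96) and Toe1 (0.96), and Tac1 like the IS genes Lcn14 (0.97), Palmd (0.97) and C130060K24Rik (0.97).

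Tac2 was most like Islr2 (r = 0.95), Qrich2 (0.92) and Ppp3r2 (0.92). Qrich2 and Ppp3r2 are known from sperm, and Ppp3r2 had 1.33 to 2.40 CPM in WT caput and at most 0.171 CPM in ArKI caput. Adm had the weakest matches, Haus4 (0.78), Prx (0.76) and Id3 (0.76). By Spearman correlation the 3 most similar genes were shared with this list for 0 of 3 in Npy, Cartpt and Penk, 1 in Tac1 and Tac2 and 2 in Adm and Vip.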

How the data were processed

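RNA sequencing of the IS, caput and testis was deposited as raw counts of reads per gene, in one table for the epididymal samples and one for the testis. Per the study's methods, the authors aligned reads with STAR and counted uniquely mapped reads per gene with the Subread package; the submitters' processing notes name Subread 1.5.1, bcl2fastq 1.8.4 and mm10. The deposited counts were used unchanged. The sources name an unstranded and a stranded kit, and how counting used strand is not given in the sources used here; Penk and Adm overlap a gene on the opposite strand, so reads of such partners could not be told apart. The 9 genes and all gene lists were chosen with earlier results of these data known.

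Within each tissue, WT and ArKI were compared with edgeR 4.0.16 (R 4.3.3): filterByExpr (minimum count 10, minimum total 15), TMM scaling, robust quasi-likelihood fits and Benjamini-Hochberg adjustment over all genes tested. ROTS, the study's test, was not run. Filtered-out members with more than 3 counts in some sample were tested by exact permutation of log2(CPM + 0.5). RPKM used exon lengths from GENCODE basic annotation on GRCm38, found for 22869 genes. The code was tested on simulated data. Genes named were the 9 members, up to 4 called genes per list and direction, receptors of a member, and the 3 most similar genes per member. Of 191 listed genes all were found, 2 by older symbols. Depth was 4125768 to 21376604 counts per library. Samples of a group came from separate mice, and intervals and floors cover counting error only. Alternatives were other scalings (limits in the closing section), filters, DESeq2 1.42.0, limma-voom (limma 3.58.1), a replicate block, and leaving out each sample. A protein table was not used here. Some results are not reported here.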

Additional observations from a re-analysis of the deposited data

Results flagged for a closer look

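Tac1 in WT IS 4 stood apart from the other WT IS samples, at 3.27 CPM (23 counts) against 1.21 to 1.71 CPM in the other 4. It was the only one of 23 groups of 5 samples checked in which a sample stood this far from the rest, and chance gives 1.15. Without WT IS 4 the difference of Tac1 in the IS was -0.63 on log2(CPM + 0.5), beside -0.81 with it.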

How the results depend on the processing

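In the IS the number of members called, 1 as reported, was 2 with RLE size factors, with library size only, without the low-count filter, with 10 counts required in every sample and with DESeq2, 4 with all epididymal groups in one fit (Adm and Vip, and also Npy and Tac2, which passed the filter of that fit only with the caput groups on which they were chosen, so that nothing is read from these 2), 3 without a fold limit and 0 to 3 when 1 sample was left out, with Penk and Adm at the 2-fold limit and Penk and Vip near the limit of adjusted p. The log2 fold change of Penk in the IS was 1.00 with RLE size factors, 1.02 with library size only, 1.00 with 10 counts in every sample, 0.999 without a fold limit and 0.813 to 1.07 without 1 sample. That of Adm was -1.01 without the filter, -1.01 with DESeq2, -1.001 in one fit, -0.9996 without a fold limit and -1.08 to -0.858 without 1 sample, and that of Vip was 1.08 to 1.37 without 1 sample.

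With 10 counts required in every sample the genes called fell to 350 in the IS, 311 in the caput and 75 in the testis, and the pathway genes called were 2 up in the IS, 0 down in the caput and 1 up in the testis. Without a fold limit 2529, 2468 and 846 genes were called, with 8 pathway genes up and 9 down in the IS, 14 up and 3 down in the caput, and 6 up and 1 down in the testis. Without the filter 10 pathway genes were called up in the IS. Without 1 sample, 1 to 2 pathway genes were called down in the caput and 1 to 2 up in the testis.

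Values near 0 changed sign in the testis: Penk was 0.0062 with library size only and -0.078 to 0.028 without 1 sample, Tac1 was -0.062 to 0.61 without 1 sample and Adm, by permutation, -0.22 to 0.043 without 1 sample. The cause of these changes was not tested. Samples with the same replicate number correlated between -0.19 and 0.20 in their deviations from the group means, so the numbers do not pair mice. With a replicate block 0 members were called in the IS, Vip having a log2 fold change of 1.22 with an edgeR adjusted p of 0.015, and Agt lost its call in the caput; the block ended no other pathway call. Of 650 values under alternatives, 573 kept their direction and side of the limit or stayed within the spread. Genes with few counts, such as Tac1 and Tac2 in the IS, are limited by depth.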
